A study of Mus musculus with 48 samples.

Results

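Midbrain of wild-type mice at 6 months of age was compared with midbrain of wild-type mice at 3 months, the comparison being chosen by sample label alone: 3 arrays per age, 6 of the 48 arrays of the series, and all 45037 probe sets that are not array controls. The animals of both ages were wild-type (WT), without the disrupted Tia1 allele of the study's other mice, and no treatment is named for them. The labels give their background as C57Bl/6, the study's methods name C57BL6/J mice of a commercial supplier as controls for a Tia1 knockout (KO) line bred into that background, and neither gives the sex. Each age was represented by 3 other mice, so that age, cohort, litter and shipment cannot be told apart. The labels call the mice WT 1, WT 2 and WT 3 at both ages, and use the same numbers for spinal cord, cerebellum and liver. The KO arrays likewise repeat their animal numbers at both ages, and the KO ages were also taken as separate mice. Total RNA was copied from the 3′ end and hybridised to an Affymetrix mouse array, on which each probe set, a group of short oligonucleotides, measures a transcript and a gene may have several. Values are log2 expression after Robust Multichip Average (RMA), so a difference of 1 is a 2-fold change.

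The midbrain holds the dopaminergic neurons of the substantia nigra and ventral tegmental area, which make dopamine through tyrosine hydroxylase (Th) and take it up again through the transporter Slc6a3, and the serotonergic neurons of the raphe, which use Tph2 and Slc6a4. Both ages lie after the main wave of myelination in the mouse. Inbred stocks of one name can also differ at single loci: C57BL/6J mice carry a known deletion in Nnt, the mitochondrial proton-pumping transhydrogenase, and a known intronic deletion that lowers Gabra2, the α2 subunit of the GABA-A receptor, and a duplication spanning Ide and Fgfbp3 is known to segregate in some C57BL/6J colonies.

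The dissection was checked against marker genes before the ages were compared. Slc6a3 lay between 8.33 and 8.98 on the 6 midbrain arrays, against a mean of 2.89 in WT spinal cord and 2.90 in WT cerebellum, and Tph2 lay between 6.66 and 7.61, against 2.69 and 2.54. The midbrain markers Pitx3 and En1 were near the lowest levels of the array, with means of 2.46 and 2.85. Hypothalamic peptide transcripts were present on all 6 arrays: Pmch, the precursor of melanin-concentrating hormone, read 10.20 to 10.86, Hcrt, the orexin precursor, 8.33 to 8.70 and Oxt, the oxytocin precursor, 8.32 to 8.86. The thalamic marker Tcf7l2 read 9.36 to 9.69. The samples labelled midbrain thus held transcripts of neighbouring diencephalon at both ages.

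The array of WT 2 at 6 months stood apart in pituitary hormone transcripts. Gh, growth hormone, read 2.47, 12.62 and 4.57 in WT 1, 2 and 3 at 6 months, against 9.66, 3.00 and 7.02 in WT 1, 2 and 3 at 3 months. Prl, prolactin, read 2.75, 9.95 and 3.04 at 6 months and 4.83, 2.54 and 3.24 at 3 months, and Cga, the α chain of the pituitary glycoprotein hormones, 2.67, 9.94 and 2.68 against 4.15, 3.62 and 3.84. The 3 transcripts were thus highest in WT 2 at 6 months, Gh was raised to a lesser degree in WT 1 and WT 3 at 3 months, and the ages overlapped for all 3. Counts without the mouse WT 2 of 6 months are given beside those that lead. Xist was near the lowest levels on all 6 arrays (2.88 to 3.22) and the Y-linked Eif2s3y was present on all of them (7.07 to 7.62), so sex as read from these genes did not go with age. A measure of RNA integrity did: the difference between the 3′ and 5′ control probe sets of Actb was 1.02, 0.975 and 0.970 at 6 months and 0.942, 0.840 and 0.852 at 3 months, without overlap, whereas that of Gapdh was 0.391, 0.268 and 0.405 at 6 months and 0.304, 0.244 and 0.329 at 3 months, with overlap. The part of these differences in the results below was not tested.

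In WT midbrain 210 probe sets differed between 6 and 3 months, 0.466% of those tested, of which 76 (0.169%) were higher and 134 (0.298%) lower at 6 months (limma's moderated test, Benjamini-Hochberg adjusted p under 0.05). They stood for 45 named genes that rose and 89 that fell, while 59 called probe sets had no gene symbol and 4 had several. Most differences were small. The median absolute difference of the called probe sets was 0.55 on the log2 scale, the smallest was 0.32, and 22 reached 2-fold, 12 higher and 10 lower at 6 months. Of the 210, 209 had no overlap between the 3 values of each age, but so had 22% of all probe sets tested (9888), so that non-overlap by itself says little here. Without WT 2 of 6 months, 71 probe sets were called, 44 higher and 27 lower, and 62 of them were among the 210. With the 6 midbrain arrays fitted alone 80 were called, 26 higher and 54 lower. When each tissue was normalized again by quantiles the count was again 210, but 117 were then higher and 93 lower. The predominance of lower calls thus depended on the scaling. It also turned without WT 2 of 6 months (44 higher, 27 lower) or WT 2 of 3 months (43 higher, 36 lower), though not without any other single mouse. At an adjusted p under 0.01 in the leading fit the directions were equal (32 higher, 32 lower). The number of arrays limits the precision, with a median SD within an age of 0.101 at 6 months and 0.0901 at 3 months.

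**Figure D1:**
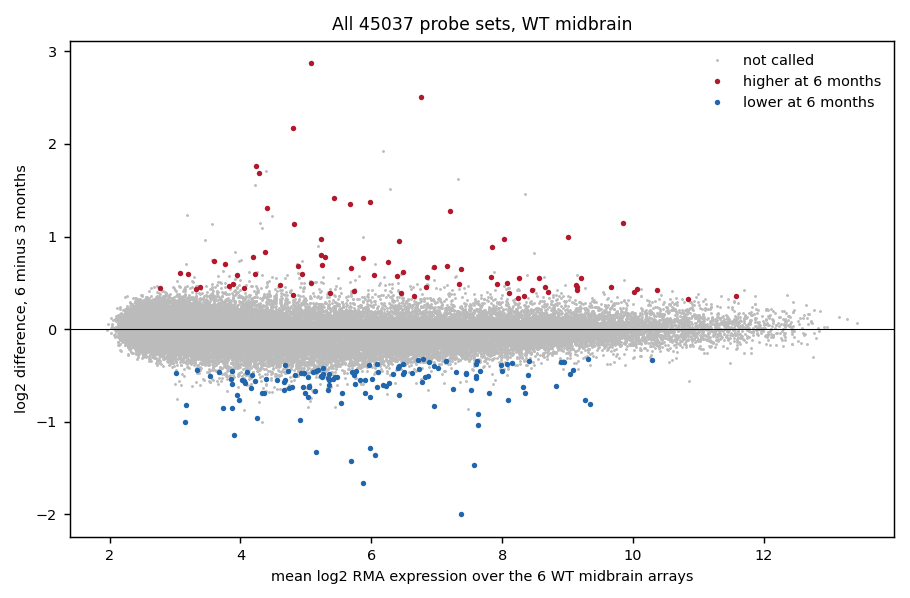
Log2 difference between 6 and 3 months (y axis) against the mean log2 RMA level over the 6 WT midbrain arrays (x axis), 1 point per probe set, with the 76 higher probe sets in red, the 134 lower ones in blue and the others in grey. Most called points lie within 1 log2 unit of 0, and the called differences span −1.99 to 2.87.

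The greatest rise among probe sets with a single gene symbol was that of Ccl27a, a chemokine gene of chromosome 4. It read 5.87, 5.82 and 5.97 in WT 1, 2 and 3 at 6 months and 3.80, 3.55 and 3.80 at 3 months. All 6-month mice were above all 3-month mice, the difference was 2.17 (SE 0.10, 4.51-fold, adjusted p = 1.33e-09), and a further probe set of the gene rose by 1.69. The other 2 of its 4 probe sets, both brighter, did not pass the test, with differences of −0.15 and −0.06. Ccl21b, a ligand of the lymphocyte receptor Ccr7, read 5.14, 4.76 and 5.44 at 6 months and 3.38, 3.03 and 3.64 at 3 months (difference 1.77, SE 0.16, adjusted p = 1.75e-05). Fam205a1 read 7.01, 6.96 and 6.71 against 5.81, 6.06 and 5.94 (difference 0.95, SE 0.12, adjusted p = 8.31e-04). The 3 genes are neighbours, at positions 145, 146 and 149 among the measured genes of chromosome 4 in the RefSeq order. This region holds near-identical chemokine copies and the Ccl21b probe set is of a type that matches more than 1 transcript, so the copy that is read remains uncertain. Above these, a probe set assigned to several genes rose by 2.87 and one with no gene symbol by 2.51.

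A second pair of neighbours rose on chromosome 14. Slc25a37, mitoferrin, which carries iron into mitochondria, read 9.52, 9.48 and 9.49 at 6 months and 8.51, 8.58 and 8.41 at 3 months, a difference of 1.00 (SE 0.08, 1.99-fold, adjusted p = 5.68e-06). The 3 values at each age were nearly equal and far apart from the other age. Of its other 2 probe sets, 1 rose by 0.97 and 1 did not pass the test (−0.24, adjusted p = 0.340). Entpd4, a Golgi nucleotidase that is the next measured gene (positions 449 and 450), read 8.26, 8.27 and 8.31 at 6 months and 7.41, 7.30 and 7.47 at 3 months (difference 0.89, SE 0.09, adjusted p = 1.27e-04), and its dim second probe set did not pass (0.47, adjusted p = 0.151). On chromosome 19, Ide, the insulin-degrading enzyme, read 8.73, 8.63 and 8.63 against 8.26, 8.22 and 8.25 (difference 0.42, SE 0.06, adjusted p = 0.00349), and a further one of its 4 probe sets rose by 0.56. With the 6 midbrain arrays alone the first of these calls was lost (adjusted p = 0.0564). Fgfbp3, dim with means of 4.25 at 6 months and 3.96 at 3 months, differed by 0.29 in midbrain, which did not pass the test (adjusted p = 0.355).

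Among genes with a symbol Gabra2 fell most. Its 2 probe sets read 5.06, 5.11 and 4.94 at 6 months against 6.51, 6.74 and 6.85 at 3 months, and 7.09, 7.33 and 7.10 at 6 months against 8.12, 8.06 and 8.10 at 3 months. Both separated the ages in every mouse, with differences of −1.66 (SE 0.19, adjusted p = 3.63e-04) and −0.92 (SE 0.10, adjusted p = 1.97e-04). Nnt read 7.09, 7.27 and 6.98 at 6 months and 8.18, 8.15 and 8.11 at 3 months (difference −1.03, SE 0.09, adjusted p = 1.57e-05), and its second probe set fell by 0.83. Wdfy1, an endosomal adaptor protein, read 6.74, 6.94 and 6.80 at 6 months and 8.10, 8.81 and 7.97 at 3 months (difference −1.46, SE 0.19, adjusted p = 0.00134). At 3 months WT 2 was the highest, and 3 of the 4 probe sets of Wdfy1 fell. Mkrn1, a ubiquitin ligase of the makorin family, read 7.42, 7.43 and 7.52 against 8.12, 8.22 and 8.08 (difference −0.68, SE 0.08, adjusted p = 3.51e-04), and the neighbouring pseudogenes Tmem181b-ps and Tmem181c-ps of chromosome 17 fell by 0.80 and 0.57. None of the genes of the last 3 paragraphs whose rise or fall is given with an adjusted p lost its call when any 1 mouse was left out. Fam205a1 did lose its call when the fit held all 24 WT arrays (adjusted p = 0.390) or all 48 arrays (adjusted p = 0.235). Entpd4, Ide, Nnt and Wdfy1 belong to a list of 5 genes drawn up as variable among C57BL/6J stocks, of which 2 rose, 2 fell and Fgfbp3 did not pass the test. With the 6 midbrain arrays alone 1 rose and 2 fell. Over all 17097 genes, each read by its brightest probe set, 99 were called in the leading fit (0.579%). The list was drawn up with earlier results of these data known and is no independent evidence.

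**Figure D2:**
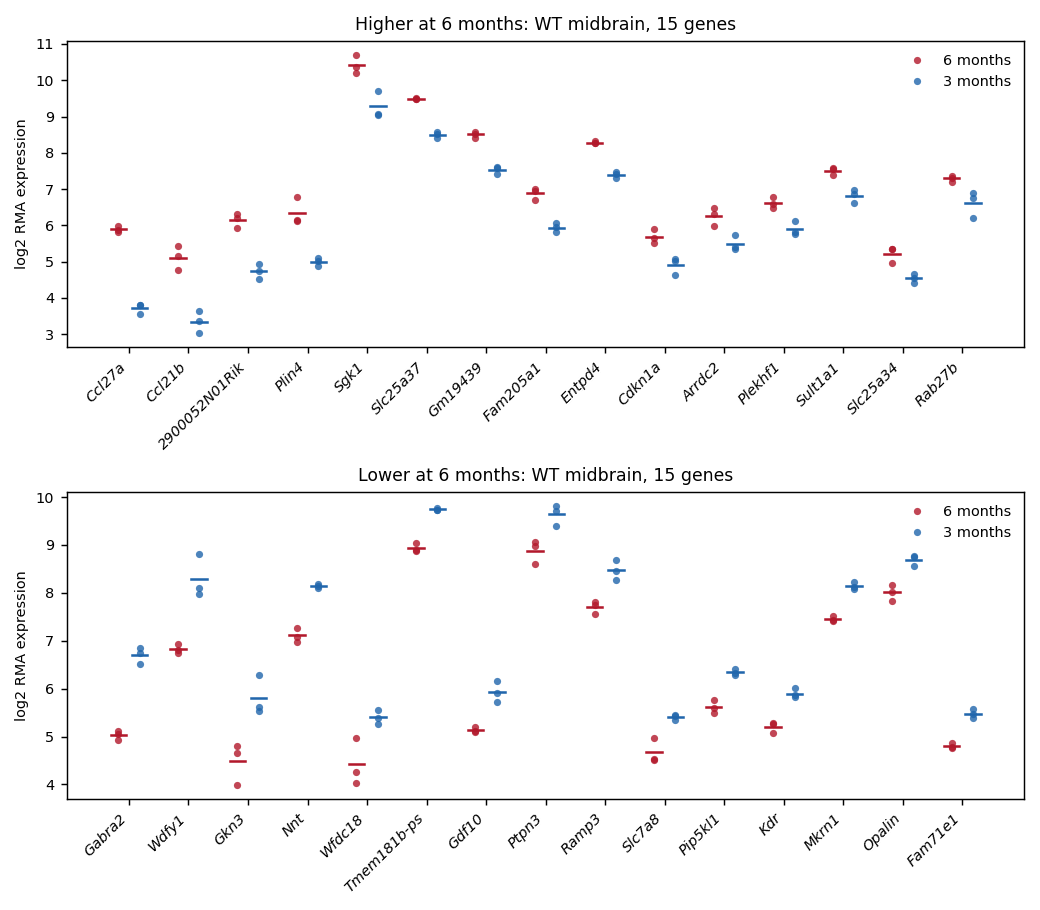
Log2 RMA levels (y axis) of the 15 genes with the largest rise (upper panel) and the 15 with the largest fall (lower panel), 1 point per mouse with 6 months in red left of 3 months in blue and the mean as a bar. The 30 genes were chosen among called probe sets whose ages do not overlap, so the gap between the ages is a condition of the choice.

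These genes were then set beside the other tissues of the same mice and beside midbrain of the KO line, the question being whether a difference was particular to midbrain or to the WT mice. By the labels' numbers the other WT tissues came from the same 6 mice, so they repeat the measurement in other RNA and not in other animals. Of the 210 probe sets called in midbrain, 70 were called in the same direction in spinal cord and 65 in cerebellum, 48 in both. In spinal cord 212 probe sets were called in all (0.471%) and in cerebellum 897 (1.99%). Slc25a37 differed by 1.00 in midbrain, 0.95 in spinal cord and 1.19 in cerebellum, Entpd4 by 0.89, 0.91 and 0.70, Ide by 0.42, 0.48 and 0.54, Nnt by −1.03, −1.14 and −1.27, the first Gabra2 probe set by −1.66, −2.18 and −1.61, Wdfy1 by −1.46, −1.35 and −1.11, and Mkrn1 by −0.68, −0.62 and −0.79. All of these passed the test in all 3 tissues. The difference between the tissues' age differences was not significant for any of these genes (adjusted p of 0.319 or more against cerebellum and 0.568 or more against spinal cord, both Gabra2 probe sets included). Fgfbp3, which did not pass in midbrain (0.29), rose in spinal cord by 0.74 (adjusted p = 0.00895) and in cerebellum by 0.84 (adjusted p = 0.00173). Its age difference in midbrain did not differ from that in spinal cord (adjusted p = 0.886) or cerebellum (adjusted p = 0.237).

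**Figure D3:**
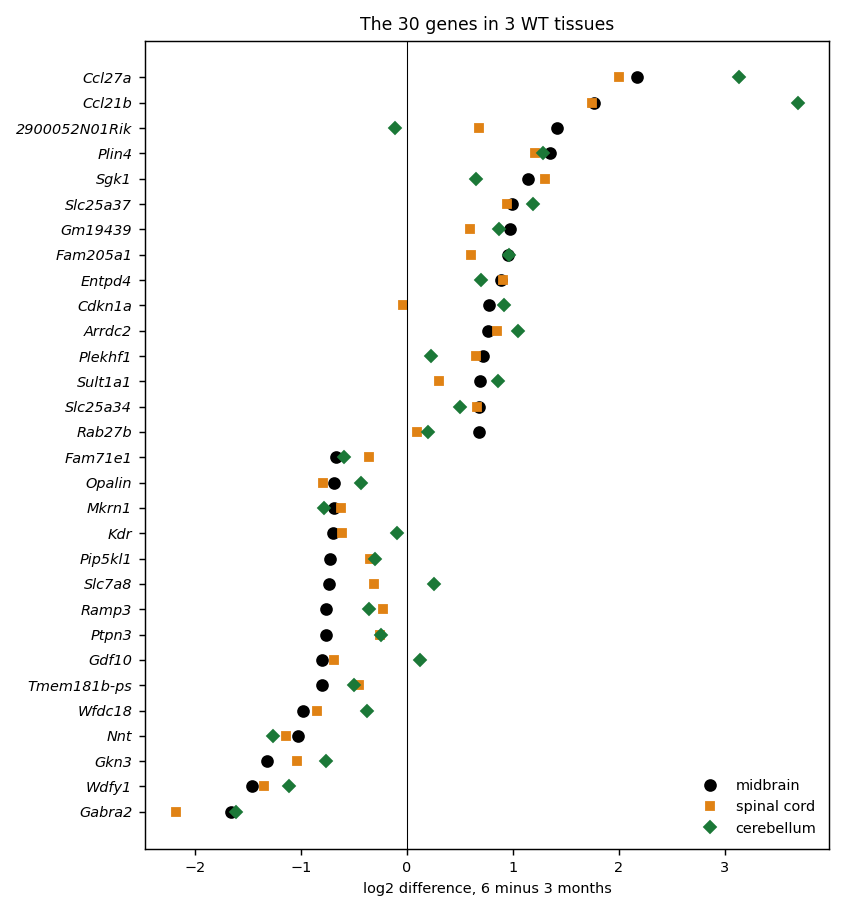
Log2 difference between 6 and 3 months (x axis) of the same 30 genes (rows) in WT midbrain (black circles), spinal cord (orange squares) and cerebellum (green diamonds). Gabra2, Wdfy1, Nnt, Entpd4 and Slc25a37 lie on the same side of 0 in the 3 tissues, whereas 2900052N01Rik reads 1.42 in midbrain and −0.11 in cerebellum.

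In a fit of the 12 midbrain arrays, 347 probe sets were called between 6 and 3 months in WT mice (0.77%) and 2 in KO mice (0.00444%; limma, where 3943 had an unadjusted p under 0.05). The age differences of WT and KO mice differed for 10 probe sets (0.0222%). Slc25a37 read 9.50 ± 0.02 at 6 months and 8.50 ± 0.08 at 3 months in WT mice, and 9.48 ± 0.02 and 9.44 ± 0.07 in KO mice (mean ± SD, n = 3). The 3-month WT mice were therefore the only one of these groups that was low. The age difference of WT mice exceeded that of KO mice by 0.96 (adjusted p = 0.00216). Entpd4 showed the same order of groups, with KO means of 8.29 and 8.22 (WT minus KO difference 0.82, adjusted p = 0.0113).

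For the genes that fell, the KO mice again lay with the 6-month WT mice in several cases. Nnt averaged 7.11 at 6 months and 8.15 at 3 months in WT midbrain, against 7.01 and 7.25 in KO midbrain (WT minus KO difference −0.78, adjusted p = 0.0387). The first Gabra2 probe set averaged 5.04 and 6.70 in WT midbrain, against 5.30 and 5.39 in KO midbrain (−1.57, adjusted p = 0.0154). Mkrn1 averaged 7.45 and 8.14 in WT midbrain, against 7.40 and 7.49 in KO midbrain, and the difference of the age differences did not pass the test (−0.60, adjusted p = 0.0816).

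Wdfy1 and Ide ran the other way. Wdfy1 averaged 6.83 at 6 months and 8.29 at 3 months in WT midbrain, against 8.77 and 8.83 in KO midbrain, so that both KO ages were nearer the 3-month WT mice (WT minus KO difference −1.41, adjusted p = 0.0687). Ide averaged 8.66 at 6 months and 8.24 at 3 months in WT midbrain, against 8.16 and 8.18 in KO midbrain (0.45, adjusted p = 0.118). Ccl27a was mixed within the KO line: the 6-month KO mice read 4.99 to 5.34, whereas the 3-month KO mice read 3.77, 3.81 and 5.20, so that 1 of 3 was as high as the older ones. Over the 210 called probe sets, both KO means were nearer the 6-month WT mean for 126 (60%), nearer the 3-month WT mean for 32 (15.2%) and split for 52. Over all probe sets tested the shares were 37.2% and 27.7%. These counts are a description, since the 6-month and 3-month WT values also chose the 210.

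**Figure D4:**
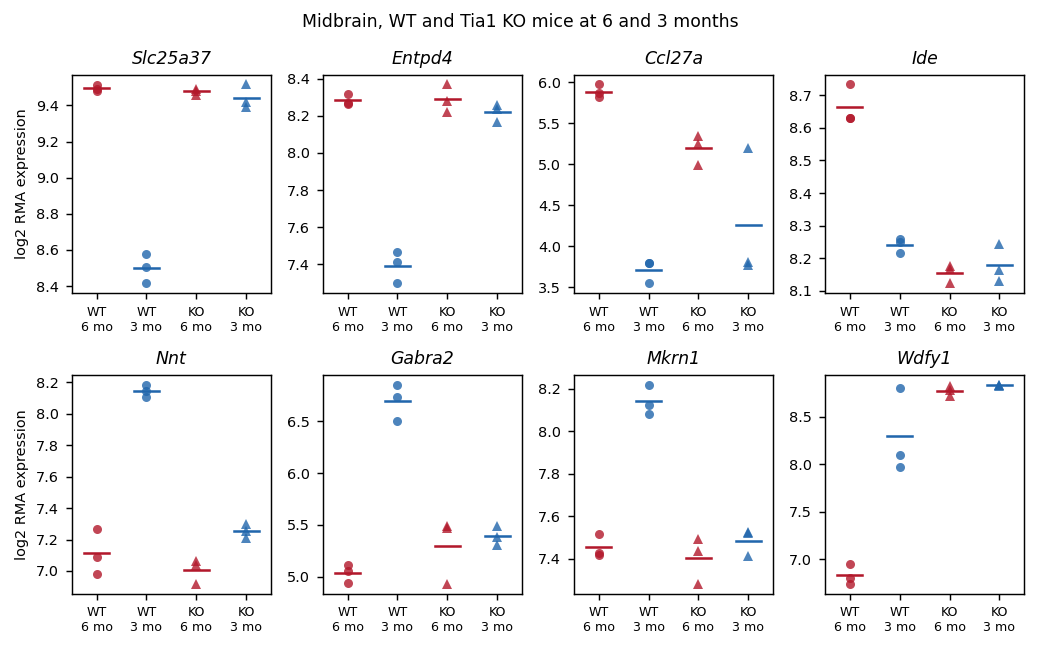
Log2 RMA levels (y axis, cut to the range of each gene) of 8 genes in midbrain of WT mice (circles) and KO mice (triangles) at 6 months (red) and 3 months (blue), 1 point per mouse with the mean as a bar. In Slc25a37, Entpd4, Nnt, Gabra2 and Mkrn1 the 3-month WT mice stand apart from the other 3 groups, and in Wdfy1 and Ide the 6-month WT mice do.

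Targets of the glucocorticoid receptor held 5 called genes. The receptor, Nr3c1, binds corticosterone and activates genes such as the kinase Sgk1. Of 17 measured genes of the list 5 rose, none fell and 14 had a positive difference, with a median of 0.26, against a median of −0.02 over the 17097 genes, each read by its brightest probe set, of which 99 were called (0.579%), 27 higher (0.158%) and 72 lower (0.421%). Plin4, a coat protein of lipid droplets, read 6.11, 6.15 and 6.79 at 6 months and 5.03, 5.10 and 4.87 at 3 months (difference 1.35, SE 0.21, 2.55-fold, adjusted p = 0.00570). All 6-month mice were higher, and WT 3 was the highest. Sgk1 read 10.71, 10.20 and 10.37 against 9.08, 9.05 and 9.71 (difference 1.14, SE 0.22, adjusted p = 0.0308), with WT 3 of 3 months nearest the older mice. Cdkn1a, the cell cycle inhibitor p21, read 5.53, 5.64 and 5.89 against 4.63, 5.02 and 5.07 (difference 0.78, SE 0.12, adjusted p = 0.00618). Its second probe set, of like brightness, did not pass (0.49, adjusted p = 0.0903), and in spinal cord Cdkn1a differed by −0.04 (adjusted p = 0.944). The sulfotransferase Sult1a1 differed by 0.69 (adjusted p = 0.0439) and the transcription factor Zbtb16 by 0.62 (adjusted p = 0.0323), again with no overlap of the ages, and a dimmer probe set of Zbtb16 did not pass (0.43, adjusted p = 0.360).

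The remaining members did not pass the test. Nfkbia differed by 0.49, Map3k6 by 0.36, Tsc22d3 by 0.28 and Fkbp5, a receptor co-chaperone, by 0.20, and Nr3c1 itself by −0.22. Lcn2 went the other way by −0.76, with 2.62, 2.66 and 2.69 at 6 months against 2.67, 3.34 and 4.23 at 3 months. In spinal cord and cerebellum the list's median was 0.26 and 0.33. In KO midbrain it was 0.11, with Plin4 at 7.82 and 6.82 (difference 1.00) and Sgk1 at 10.54 and 10.67 (difference −0.13) at 6 and 3 months. The calls were not firm: with the 6 midbrain arrays alone 2 of the 5 were called (Plin4 and Sult1a1), Sult1a1 and Zbtb16 were lost without any 1 of the 6 mice, Sgk1 without any except WT 3 of 3 months, Plin4 without WT 1 or WT 3 of 3 months, and Cdkn1a without WT 2 or WT 3 of 6 months. This list holds genes that earlier results of these data had shown to move.

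**Figure D5:**
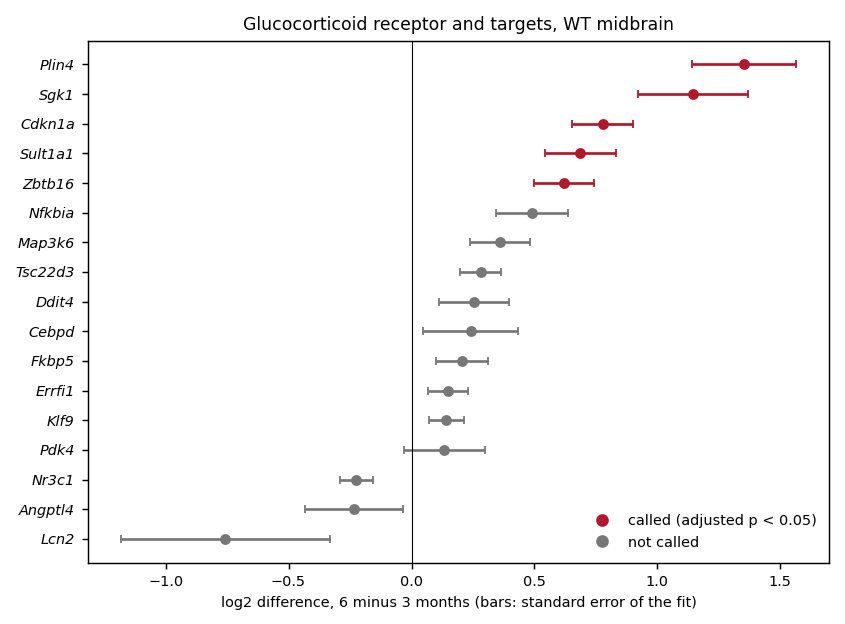
Log2 difference between 6 and 3 months in WT midbrain (x axis) with the standard error of the fit as bars, for the 17 measured genes of the glucocorticoid list (rows), red where called and grey where not. The 5 called genes lie between 0.62 and 1.35, and 3 genes lie below 0.

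Of the 5 called genes, 4 had a promoter in the RefSeq table (GRCm38.p6, 250 bases before to 50 after the first listed start), and in 2 it held the motif AGAACA or its reverse complement, to which a glucocorticoid receptor subunit can bind. They are shown with that motif in capitals, and for Sult1a1 also with a match to the D-box TTANGTAA, the site of the clock output factor Dbp.

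Sgk1 (chr10:21881934-21882233, + strand): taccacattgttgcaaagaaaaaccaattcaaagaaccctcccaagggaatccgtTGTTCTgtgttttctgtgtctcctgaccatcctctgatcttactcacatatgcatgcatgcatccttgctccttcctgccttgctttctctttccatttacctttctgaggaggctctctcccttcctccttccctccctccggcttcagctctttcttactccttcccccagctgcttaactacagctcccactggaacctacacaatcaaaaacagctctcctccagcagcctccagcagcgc

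Sult1a1 (chr7:126676369-126676668, − strand): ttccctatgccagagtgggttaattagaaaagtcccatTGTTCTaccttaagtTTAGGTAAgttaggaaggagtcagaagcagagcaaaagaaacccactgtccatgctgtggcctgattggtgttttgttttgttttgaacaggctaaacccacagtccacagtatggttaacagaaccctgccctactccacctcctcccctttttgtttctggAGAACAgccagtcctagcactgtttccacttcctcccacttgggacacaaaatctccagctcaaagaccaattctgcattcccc

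The motif is short and common. It stood on either strand in 12.1% of the 33 promoters of genes that rose, in 9.23% of the 65 promoters of genes that fell and in 14.5% of the 13605 promoters of all measured genes. Over the whole glucocorticoid list, called or not, it stood in 2 of 13 promoters (15.4%), near the share of all measured genes. The full glucocorticoid response element, an inverted repeat that contains it, stood in none of the promoters of called genes and in 1 of the 13605. The D-box TTANGTAA stood in 6.06% of promoters of genes that rose (2 of 33), 1.54% of genes that fell and 1.67% of all. A second form of it, TTATGNAA, stood in 6.06% of promoters of genes that rose, 7.69% of genes that fell (5 of 65) and 2.35% of all. The E-box CACGTG, bound by the core clock factors, stood in 6.06% of promoters of genes that rose, 4.62% of genes that fell and 9% of all.

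The genes of the circadian clock and its output were examined beside this, since the hour of killing is not given in the labels. None of 18 measured genes was called, 4 had a positive difference and the median was −0.11. With each gene read by the mean of its probe sets instead of the brightest, 1 gene of this list was called lower at 6 months. Dbp, a clock output factor, read 7.96, 7.88 and 7.79 at 6 months and 8.30, 8.23 and 8.33 at 3 months (difference −0.41, adjusted p = 0.0617), and Npas2, a partner of the core factor Bmal1, 4.70, 4.45 and 4.73 against 5.17, 5.20 and 5.04 (difference −0.51, adjusted p = 0.0805). The ages did not overlap for either gene, but neither passed the test. Of 22 immediate early genes none was called, and the greatest difference was −0.79 for Npas4 (adjusted p = 0.286).

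Among markers of cell types the myelin gene Opalin stood alone. Opalin, a membrane protein of oligodendrocyte paranodal loops, read 8.17, 7.84 and 8.02 at 6 months and 8.77, 8.56 and 8.75 at 3 months (difference −0.68, SE 0.10, 1.61-fold lower at 6 months, adjusted p = 0.00473). It fell also in spinal cord (−0.79) and in cerebellum (−0.44), and in KO midbrain the difference was −0.55 (adjusted p = 0.230). The call was lost without WT 2 of 6 months or WT 3 of 3 months, and the second probe set of Opalin, near the lowest levels of the array, did not pass (−0.31, adjusted p = 0.343). The other 12 measured genes of the list of mature oligodendrocytes did not pass the test, and 10 of the 13 had a positive difference, among them Mobp with 0.29 and Mbp, myelin basic protein, with 0.14. In whole tissue, fewer cells of a type and less RNA per cell cannot be told apart. Anln, which myelinating oligodendrocytes also express and which lies outside the list, rose with 2 probe sets by 0.65 and 0.55, and was named after its values were seen.

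No member was called in the lists for dopaminergic and serotonergic neurons, astrocytes, microglia, oligodendrocyte precursors, endothelial cells, pericytes or choroid plexus. With each gene read by the mean of its probe sets, 1 endothelial gene was called higher at 6 months, and still none in the other lists just named. Th read 7.21, 7.22 and 6.79 at 6 months and 6.90, 6.78 and 7.09 at 3 months, with overlap of the ages, and Slc6a3 differed by 0.25 (adjusted p = 0.503). Of the 11 measured dopaminergic genes 10 had a positive difference, with a median of 0.15, but none had an unadjusted p under 0.05 in limma's test. Only 7 of the 11 reached a mean of 5 at either age. Aldh1a1 did not set midbrain apart, with means of 10.62 in midbrain, 10.63 in spinal cord and 10.71 in cerebellum. The median difference was −0.03 over 12 astrocyte genes, 0.04 over 13 microglial genes and −0.15 over 9 endothelial genes. Cldn5, the tight junction protein of brain endothelium, read 7.77, 7.87 and 7.82 against 8.57, 8.30 and 8.07 (−0.49, adjusted p = 0.0739), and Slc2a1, the glucose transporter of the same cells, 9.78, 9.74 and 9.83 against 9.44, 9.41 and 9.48 (0.34, adjusted p = 0.0566). The ages did not overlap in either gene, and the directions were opposite. Outside the list, the VEGF receptor Kdr fell (5.26, 5.28 and 5.07 at 6 months against 6.01, 5.87 and 5.82 at 3 months, difference −0.69, adjusted p = 0.00943), a call lost without WT 2 or WT 3 of 6 months and without WT 1 or WT 3 of 3 months.

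Several named genes were called in midbrain and in neither of the other WT tissues. Ptpn3, a tyrosine phosphatase, read 9.07, 8.60 and 8.98 at 6 months and 9.72, 9.40 and 9.81 at 3 months (difference −0.76, SE 0.12, adjusted p = 0.00618), against −0.25 in spinal cord and −0.25 in cerebellum. Ramp3, which modifies calcitonin family receptors, read 7.82, 7.57 and 7.75 against 8.69, 8.27 and 8.46 (−0.76, SE 0.12, adjusted p = 0.00485). The exocytosis GTPase Rab27b differed by 0.68 (adjusted p = 0.0463) in 1 of its 3 probe sets, whereas the brightest differed by −0.18 (adjusted p = 0.707). The amino acid transporter Slc7a8 differed by −0.73 (adjusted p = 0.0388) and Pip5kl1 by −0.73 (adjusted p = 0.0194). All 5 lost the call without WT 2 of 6 months, and all but Ramp3 also without other mice. None of the 5 differed from spinal cord or cerebellum in a test of the age differences (adjusted p of 0.106 or more). In both Ptpn3 and Ramp3 the mouse numbered WT 2, taken as a different mouse at each age, was the lowest of its age. The thalamic marker Prkcd was also lowest in WT 2 at either age, with 9.15, 8.46 and 9.20 at 6 months and 9.64, 8.998 and 9.47 at 3 months. Of the 6 thalamic and habenular markers 4 had a negative and 2 a positive difference, and none was called. Their mean level was 6.38 to 6.81 per array at 6 months and 6.77 to 7.02 at 3 months. The part of these markers in the results was not tested.

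The difference of the age differences passed the test for 5 probe sets between midbrain and spinal cord (0.0111%) and for 24 between midbrain and cerebellum (0.0533%). Of the genes called in midbrain it did so for 2900052N01Rik, a transcript of chromosome 9, which read 6.19, 5.92 and 6.32 at 6 months and 4.94, 4.74 and 4.51 at 3 months (difference 1.42, SE 0.18, adjusted p = 8.31e-04), against −0.11 in cerebellum (adjusted p = 0.0319 for the difference). A second of its 3 probe sets rose by 0.70 and the third differed by 0.82 (adjusted p = 0.0546). Bpifa1 fell by 1.00 in midbrain (adjusted p = 7.12e-05) and differed by −0.04 in spinal cord and 0.12 in cerebellum, but it read only 2.72, 2.74 and 2.48 at 6 months and 3.75, 3.37 and 3.81 at 3 months, near the lowest levels of the array. Ccl27a and Ccl21b rose more in cerebellum, by 3.13 and 3.69, than in midbrain.

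Gm19439 read 8.57, 8.41 and 8.53 at 6 months and 7.42, 7.60 and 7.58 at 3 months (difference 0.97, adjusted p = 1.57e-05) and rose in spinal cord (0.60) and cerebellum (0.87). The arrestin family gene Arrdc2 differed by 0.77 (adjusted p = 0.0324) and the mitochondrial carrier Slc25a34 by 0.68 (adjusted p = 0.0194), and both were called in the 3 tissues. In midbrain Arrdc2 lost its call without WT 1 or WT 3 of 6 months and without WT 1 or WT 2 of 3 months, Slc25a34 without any 1 mouse but WT 2 of 6 months, and both with the 6 midbrain arrays alone (adjusted p = 0.0778 and 0.0680). Gdf10, a TGF-β family ligand, read 5.12, 5.09 and 5.19 at 6 months and 5.73, 6.16 and 5.91 at 3 months (difference −0.80, adjusted p = 0.00462), fell in spinal cord (−0.69) and differed by 0.12 in cerebellum, and its midbrain call was lost without WT 2 of 6 months or WT 2 of 3 months. Gkn3 read 4.66, 4.81 and 3.997 at 6 months and 5.54, 5.61 and 6.29 at 3 months (difference −1.32, adjusted p = 0.0280). WT 3 was the lowest mouse at 6 months and the highest at 3 months, and the call was lost without any 1 of the 6 mice. The second probe set of Gkn3 did not pass (−0.61, adjusted p = 0.271), nor did the first in spinal cord (adjusted p = 0.0806) or cerebellum (adjusted p = 0.133).

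No member was called among 21 subunits of the respiratory chain (median difference 0.02), 12 cytosolic ribosomal proteins (−0.01), 12 heat shock proteins (−0.01), 16 genes of cholesterol synthesis and uptake (−0.01), 15 of the integrated stress response (0.03), 15 of the interferon response (0.02), 13 cell cycle genes (−0.15), 12 collagen and basement membrane genes (−0.26) and 17 stress granule components (0.04). Of the 12 collagen and basement membrane genes 10 had a negative difference, as had 19 of 22 immediate early genes. Among 19 ionotropic receptor subunits Gabra2 was the only one called. Gabrd, the δ subunit of extrasynaptic GABA-A receptors, differed by −0.70 (adjusted p = 0.151), and the mouse numbered WT 2 of each age was the lowest of its age. Of 16 genes that the study followed for its KO mice, Plin4 and Cdkn1a rose and Wdfy1 fell between the WT ages, beside 0.579% called over all genes. The other 13 did not pass the test, among them Mfsd2a (0.47, adjusted p = 0.106). Pnpla2, Dcp1b and Tprkb were read by probe sets other than those the study listed. That of Pnpla2 lay near the lowest levels of the array, with means of 2.58 at 6 months and 2.60 at 3 months. The list of 16 genes was chosen on the same samples and is no independent evidence.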

How the data were processed

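RNA of midbrain, spinal cord, cerebellum and liver of WT and Tia1 KO mice was hybridised by the authors to 48 Affymetrix HT MG-430 PM arrays. The authors deposited log2 values after background correction, quantile normalization and summarization by RMA, which per the labels was run in R 2.14.0, and quantile normalization can move small shifts of all genes between directions. No scanner intensities were analysed here. Of 45141 probe sets, 104 controls were left out, and platform annotation gave 28898 a single gene symbol.

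In R 4.3.3, limma 3.58.1 fitted the means of 6 groups to 18 WT arrays (3 tissues, 2 ages, 3 mice each), with 12 residual degrees of freedom and a prior of 5.46. The midbrain difference, 6 minus 3 months, was tested over 45037 probe sets with Benjamini-Hochberg adjustment at 0.05, and differences between tissues as contrasts of contrasts. WT and KO were compared in 12 midbrain arrays. By the labels' numbers the 18 WT arrays came from 6 mice, and the fit treated them as independent, also in the contrasts between tissues. Its p-values thus measure a spread within groups pooled over the 3 tissues, and only of these mice. With the mouse as a random block the same 210 probe sets were called in midbrain (estimated correlation within a mouse 0.0060). In the 12-array fit the p-values measure the spread between arrays within a group. An exact permutation test of 3 mice against 3 cannot go below p = 0.1.

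Members and lists were chosen with earlier results of these data known. Genes were named by rule: the 15 largest called differences per direction without overlap and with a mean of at least 5 in the higher group, the 5 smallest p per direction, called list members and the 5 largest called contrasts of contrasts. List genes were read by their brightest probe set, or in an alternative by the mean of the probe sets of each gene. Alternatives were the arrays in the fit, a filter on dim probe sets, renormalization, the prior, blocks on mouse number or mouse, thresholds and leaving out each mouse. The fit was tested on simulated data. Promoters and gene order came from RefSeq tables (GRCm38.p6).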

Additional observations from a re-analysis of the deposited data

Results flagged for a closer look

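The age difference of WT midbrain differed from that of another tissue of the same mice, or from KO midbrain, for the genes named here (limma, contrast of age differences, adjusted p under 0.05). Values are the midbrain difference minus the other one, on the log2 scale.

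Against spinal cord, the difference was 0.81 for Sprr1a (adjusted p = 0.0191), 0.76 for Rab7b (adjusted p = 0.0458), 0.70 for Srpk3 (adjusted p = 0.0191) and −0.96 for Bpifa1 (adjusted p = 0.0399). All 4 had means under 5 in midbrain, and of them Bpifa1 alone was called in midbrain itself. No probe set differed between midbrain and spinal cord without any 1 of the 6-month mice or without WT 1 of 3 months, and 1 did without WT 2 or WT 3 of 3 months.

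Against cerebellum, the cationic amino acid transporter Slc7a3 had the largest value, −2.49 (adjusted p = 1.04e-09), from 0.11 in midbrain and 2.60 in cerebellum. The glutathione-degrading enzyme Chac1 had −1.39 (adjusted p = 3.80e-04), from 0.17 in midbrain and 1.56 in cerebellum. Both are known targets of the integrated stress response, and neither was called in midbrain. The value was −1.93 for Ccl21b, −0.96 for Ccl27a, −1.0004 for Rell1 and −1.12 for Bpifa1. It was 1.53 for 2900052N01Rik, 1.08 for the glutamate receptor Grm8, 0.98 for the splicing factor Rbm25 and 0.79 for Col27a1. For Grm8, Rbm25 and Col27a1 the cerebellar difference was negative and the midbrain one was not called.

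Against KO midbrain, the value was 0.96 for Slc25a37, 0.82 for Entpd4, −0.84 for Tmem181b-ps, −0.78 for Nnt and −1.57 for Gabra2, in all of which the KO ages differed by 0.25 or less. Tmem181b-ps averaged 8.94 at 6 months and 9.74 at 3 months in WT midbrain, against 9.58 and 9.54 in KO midbrain. For Chst5, a dim probe set, it was −0.93. For Meg3, the imprinted non-coding RNA, it was 1.49 (adjusted p = 4.74e-05), with 10.88 at 6 months and 10.99 at 3 months in WT, against 9.30 and 10.90 in KO mice. It was seen in 1 of the 10 Meg3 probe sets, and the other 9 differed by 0.09 or less in KO midbrain.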

How the results depend on the processing

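The 210 called probe sets (76 higher, 134 lower) became 80 (26, 54) with the 6 midbrain arrays alone, 66 (27, 39) with all 24 WT arrays, 116 (55, 61) with all 48 arrays, 362 (134, 228) with probe sets of a mean of at least 5, 367 (164, 203) with a trended and robust prior, 64 (32, 32) at an adjusted p under 0.01, and 210 (117, 93) after renormalization. Leaving out a mouse gave 57 to 98 (28 to 44 higher, 27 to 66 lower), with the fewest without WT 3 of 3 months. The mouse numbers did not pair the ages (same-number correlations −0.05, −0.13 and 0.04 in midbrain). A replicate block on the number gave 126 (48, 78), 107 of them among the 210, and 1, 17 and 1 for the contrasts with spinal cord, cerebellum and KO midbrain.

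The count against spinal cord, 5, was 0 with 24 arrays, 48 arrays, the filter on dim probe sets or adjusted p under 0.01, 3 with the trended prior, and 0 to 1 without a mouse. The count against cerebellum, 24, was 10 with 24 arrays, 12 with 48, 49 with the filter, 49 with the trended prior, 8 at the stricter threshold and 4 to 16 without a mouse. The WT against KO count, 10, was 20 with 48 arrays, 66 with the filter, 210 with the trended prior, 2 at the stricter threshold and 2 to 14 without a mouse. Called list members were 11 of 437 measured genes, or 7 with the 6 arrays alone, beside 0.579% called over all genes in the leading fit. All but Opalin and Gabra2 belong to the glucocorticoid list, the copy-variable list or the genes the study followed. Those lists were drawn up with results of these samples known, so the share of called members is no independent evidence. Uncalled genes near 0 changed sign without single mice, Pnpla7 over −0.029 to 0.196, Tprkb over −0.00518 to 0.039 and Pnpla2 over −0.064 to 0.018. The cause was not tested.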
